A study of Mus musculus with 6 samples.

Results

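The IL-1 and IL-17 receptor genes are 9 of the 55421 genes in the table of estimated counts, namely Il1r1, Il1rl1, Il1rl2 and Il1rap of the IL-1 receptor family and Il17ra, Il17rb, Il17rc, Il17rd and Il17re of the IL-17 receptor family. They were matched by gene name in the table of each library and joined to the counts by gene identifier. The 9 genes were selected on the comparison described here, with its results known, so their differences between the groups are a description, no p-value is given for them, and where their edgeR calls are counted the count is part of that description. Both groups were C2C12 cells, mouse myoblasts that form myotubes after serum withdrawal, stably transfected with a GFP transgene carrying 200 CUG repeats in its 3'UTR as a model of myotonic dystrophy type 1 (DM1). The control carried the empty vector pLL4.0 and the miR-322/-503 group carried the same vector with a miR-322/-503 insert, and RNA was taken from both on day 4 of differentiation, with 3 libraries per group. Each group was 1 drug-selected stable line, and what sets the lines apart cannot be told apart from the microRNAs' effect. The study's methods name biological and technical replicates for assays in general, and the labels do not say whether the libraries of a group came from separate cultures, so the p-values measure the spread between these libraries, which may be technical.

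A receptor of the IL-1 family pairs a ligand-binding chain with a shared partner, the accessory protein encoded by Il1rap, and the paired chains recruit the adaptor MyD88, IRAK kinases and TRAF6 to switch on NF-kB. IL-17 receptors use the shared chain IL-17RA with a second chain that sets which ligand is bound, and signal through the adaptor Act1, encoded by Traf3ip2. Both families are best known from leukocytes, epithelia and stromal cells, and muscle cells also respond to their ligands during injury and inflammation.

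The libraries held between 73532084 and 92157388 estimated counts. Since each read pair was worth about 4 counts, these totals stood for 18383021 to 23039347 read pairs, and a floor of 3 read pairs lay at 0.126 to 0.160 CPM (estimated counts scaled to the TMM-normalized library size). All 8 skeletal muscle markers were detected in both groups, with a summed level of 3470 to 3754 CPM in the control and 4306 to 4513 CPM in the miR-322/-503 libraries. Des, Ckm, Tnnt3 and Myod1 were higher and Myog was lower by an edgeR adjusted p under 0.05. Des had the largest rise in CPM, from 1149 ± 61.2 in the control to 1800 ± 59.4 with miR-322/-503. Myog was at 203 ± 15.8 CPM in the control and 122 ± 10.2 CPM with miR-322/-503. Mymk, Acta1 and Myh3 did not pass the adjusted p. Acta1 and Myh3 overlapped between the groups, while Mymk was lower without overlap, at 226 ± 49.0 and 170 ± 14.7 CPM. The overexpression could not be followed in these libraries, since the genes of the 2 microRNAs gave too few counts to be tested. Mir322 was at 1, 7 and 2 counts in control libraries and at 17, 0 and 3 with miR-322/-503, and Mir503 at 1, 1 and 2 against 6, 4 and 5, without overlap.

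The 2 overexpressed microRNAs share bases 2 to 7 of their seeds, and their mature sequences are shown because the receptor 3'UTRs were searched for matches to them. They come from RefSeq on GRCm38.p6, with the seed (bases 2 to 8) in capitals. Both lie on the minus strand of the X chromosome, miR-322-5p at chrX:53054306-53054327 and miR-503-5p at chrX:53054027-53054049.
mmu-miR-322-5p: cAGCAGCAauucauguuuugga
mmu-miR-503-5p: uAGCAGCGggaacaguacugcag

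In the longest annotated 3'UTR of each gene (GENCODE M21, GRCm38, transcript strand, overlapping matches counted), the 7-base match TGCTGCT to bases 2 to 8 of miR-322-5p was present in 4 of the 8 receptor genes with a 3'UTR of at least 50 bases. Il17ra held 4 such matches in 5075 bases, Il1r1 held 3 in 3864 bases, and Il1rl1 and Il17rd held 1 each in 3246 and 5900 bases. Over all 20674 genes with such a 3'UTR, 20.6% held the match, 1.63% held 3 or more and 0.605% held 4 or more. The matches of the receptor genes are shown in capitals within 22 bases of the plus strand.
Il17ra, chr6:120484947-120484968: gagcactTGCTGCTttctcaga
Il17ra, chr6:120485193-120485214: caccatgTGCTGCTttcttggc
Il17ra, chr6:120486320-120486341: cttcttcTGCTGCTtcctgccc
Il17ra, chr6:120487413-120487434: gaaagcgTGCTGCTacattgtc
Il1r1, chr1:40313582-40313603: tcagggaTGCTGCTccgggatg
Il1r1, chr1:40314501-40314522: ccaacccTGCTGCTtctctgta
Il1r1, chr1:40316789-40316810: gctaggcTGCTGCTctgtgata
Il1rl1, chr1:40464605-40464626: tcatgccTGCTGCTccatccat
Il17rd, chr14:27105334-27105355: atcattcTGCTGCTgttaattt

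The shorter match GCTGCT, to bases 2 to 7 of both microRNAs and contained in the 7-base match, occurred 6 times in Il17ra, 5 times in Il17rd, 4 times in Il1r1 and once in Il1rl1, and 39.2% of all 3'UTRs held it. The 3'UTRs of Il1rl2 (2117 bases), Il1rap (2676 bases), Il17rb (489 bases) and Il17re (615 bases) held neither match, and Il17rc has no annotated 3'UTR of 50 bases or more. The match CGCTGCT to bases 2 to 8 of miR-503-5p was in none of the receptor genes and in 4.00% of all 3'UTRs. A match is a description of the sequence and not a binding site. 3'UTRs with the 7-base match to miR-322-5p were longer, with a median of 2178 bases against 778 without it, and the median log2 fold change of tested genes was 0.01 with the match and -0.02 without it.

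Of the 9 receptor genes, 7 passed edgeR's expression filter. Il1rl2 had no counts in any library and Il17rb was below the filter. Every one of the 7 had a log2 fold change (miR-322/-503 against control, here and throughout) below 0, with a median of -0.74 and a range of -4.56 to -0.09, beside a median of -0.01 over all 18140 tested genes. By an adjusted p under 0.05 in edgeR's quasi-likelihood test and a log2 fold change beyond 1 in size, 2 of the 7 were called lower, Il17re and Il1rl1, and 0 were called higher, where 5.29% of all tested genes were called lower and 4.59% higher. By the adjusted p alone, 5 were lower and 0 higher, against 15.5% and 13.2% of all tested genes, and of the 6 fits that each left out 1 library, Il1rap was still among the 5 only in that without control replicate 3. The groups did not overlap for 5 receptor genes, all lower, where 23.5% of all tested genes were lower and 21.6% higher without overlap. The genes were chosen by these values, and nothing is read from the counts.

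**Figure D1:**
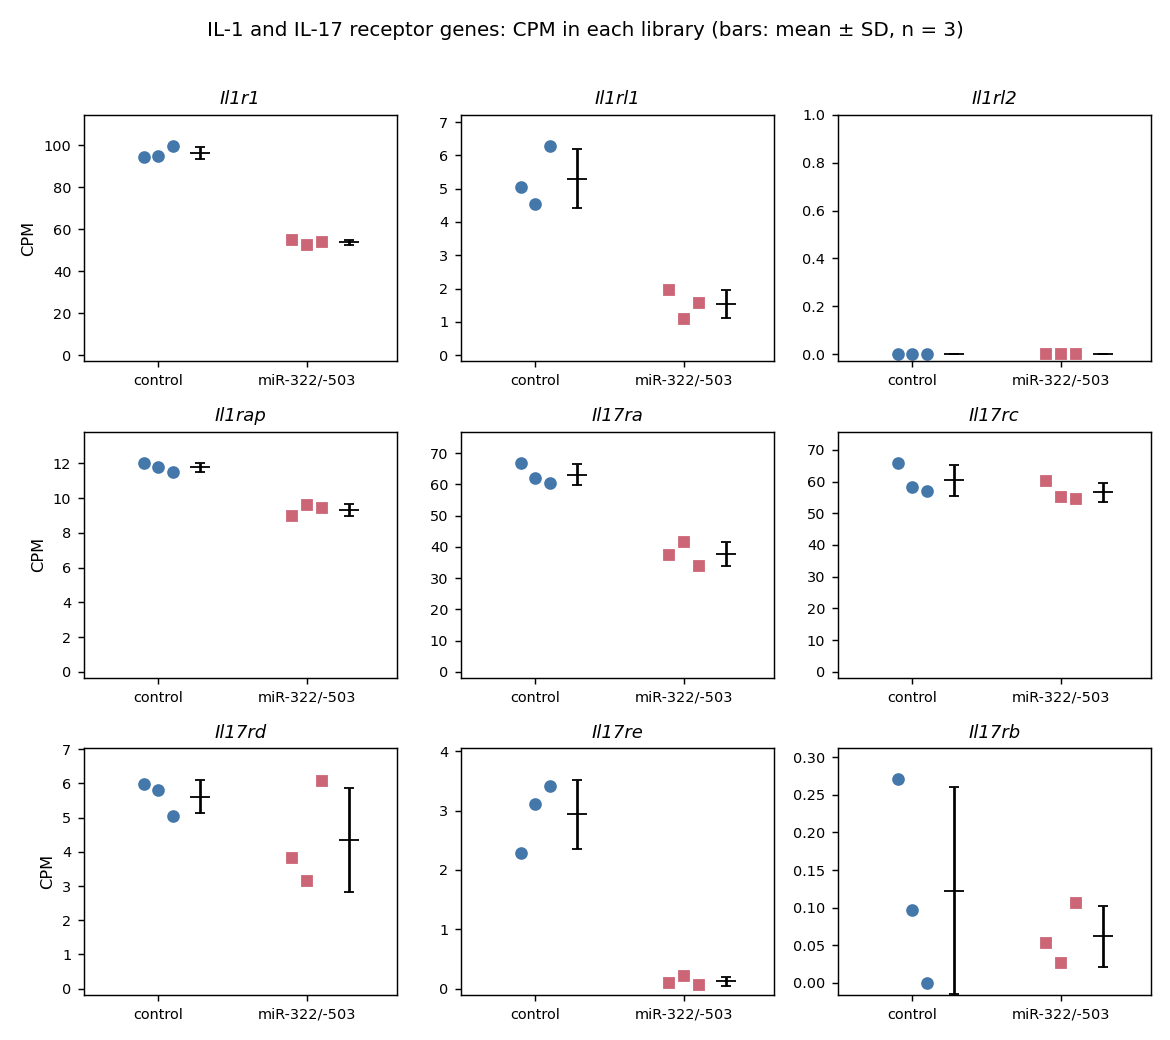
Level of each receptor gene in CPM (linear vertical axes that include 0, a scale of its own for each gene) in the 3 control libraries (circles) and the 3 miR-322/-503 libraries (squares), with the mean and the SD as a bar beside them. Il17re, Il1rl1, Il1r1, Il17ra and Il1rap are separate between the groups, Il17rc and Il17rd overlap, Il17rb lies near the detection floor and Il1rl2 is at 0.

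Among the ligand-binding chains of the IL-1 family, Il1r1 (ENSMUSG00000026072, chr1:40225080-40317257 of GRCm38, plus strand) encodes the receptor for IL-1 alpha and IL-1 beta. Its level was 94.6, 95.0 and 99.6 CPM in the control libraries and 54.8, 52.5 and 54.1 CPM in the miR-322/-503 libraries. All control libraries were high, all miR-322/-503 libraries were low, and the gap between them far exceeded the spread within either group. The log2 fold change was -0.84 (standard error 0.05), a level 1.79 times lower. In bulk RNA, fewer cells carrying a transcript and less of it per cell cannot be told apart, here and for the other genes.

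Il1rl1 (ENSMUSG00000026069, chr1:40429570-40465415, plus strand) encodes ST2, the receptor of the alarmin IL-33, in a membrane-bound form and a soluble decoy form. It was measured at 5.07, 4.55 and 6.28 CPM in the control and at 1.95, 1.09 and 1.57 CPM with miR-322/-503. The highest miR-322/-503 library lay well under the lowest control library. The log2 fold change was -1.78 (standard error 0.24), or 3.43 times lower. The mean transcript length that the deposited counts and TPM imply for Il1rl1 varied between 2920 and 4280 bases in the control and between 2685 and 5338 bases with miR-322/-503. It was 2685 bases in miR-322/-503 replicate 1 and 5319 and 5338 bases in the other two, so the mix of transcripts assigned to the gene differed among replicates, and the annotated Il1rl1 transcripts run from 375 to 5302 bases. These lengths rest on 82 to 530 estimated counts per library.

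Il1rl2 (ENSMUSG00000070942, chr1:40324610-40367562, plus strand), the receptor chain for the IL-36 cytokines, had 0 counts in all 6 libraries, which allows a level of up to 0.126 to 0.160 CPM at a floor of 3 read pairs. It lies between Il1r1 and Il1rl1, 7352 bases after the first and 62007 bases before the second. The cluster therefore held a transcript at each end that was measured in all 6 libraries and one in the middle that was measured in none.

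Il1rap (ENSMUSG00000022514, chr16:26581704-26730117, plus strand), the partner chain that IL-1, IL-33 and IL-36 receptors share, was at 12.0, 11.8 and 11.5 CPM in the control and at 8.95, 9.58 and 9.40 CPM with miR-322/-503. The groups did not overlap, but the difference was the smallest among the 5 genes with separate groups, at a log2 fold change of -0.34 (standard error 0.09). An antisense gene, Gm20319, shares 552 exonic bases with Il1rap and had at most 6 counts in a library.

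Of the IL-17 receptor chains, Il17ra (ENSMUSG00000002897, chr6:120463247-120487559, plus strand) encodes the subunit common to the IL-17 receptors. Its level was 66.9, 62.1 and 60.3 CPM in the control libraries and 37.4, 41.7 and 33.9 CPM in the miR-322/-503 libraries. The groups were clearly apart, at a log2 fold change of -0.74 (standard error 0.09), or 1.67 times lower.

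Il17rc (ENSMUSG00000030281, chr6:113471427-113483140, plus strand) encodes the chain that joins IL-17RA to bind IL-17A and IL-17F. It was measured at 65.9, 58.2 and 57.0 CPM in the control and at 60.1, 55.2 and 54.4 CPM with miR-322/-503. The groups overlapped, and the log2 fold change of -0.09 (standard error 0.08) was near its own error. It was the receptor gene closest to 0.

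Il17re (ENSMUSG00000043088, chr6:113458484-113470758, plus strand) encodes the chain that joins IL-17RA to bind IL-17C, a cytokine of epithelia. It was at 2.29, 3.11 and 3.41 CPM in the control and at 0.0944, 0.213 and 0.0665 CPM with miR-322/-503. All 3 miR-322/-503 libraries were close to the floor of detection, with 9, 16 and 5 estimated counts against 177, 257 and 288 in the control. The log2 fold change was -4.56 (standard error 0.42), and 0.606% of all tested genes had one as low or lower. On the scale of read pairs, about 180 pairs stood against 8 over the 3 libraries of each group, a level 22.6 times lower with an exact 95% binomial (Clopper-Pearson) interval of 11.2 to 53.2 that covers counting error only.

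Il17rd (ENSMUSG00000040717, chr14:27038941-27107286, plus strand) encodes a family member also known as SEF, an inhibitor of fibroblast growth factor signalling. Its level was 5.98, 5.81 and 5.06 CPM in the control and 3.83, 3.16 and 6.06 CPM with miR-322/-503. By counts, miR-322/-503 replicate 3 was the highest of all 6 libraries and the groups overlapped, at a log2 fold change of -0.37 (standard error 0.24). By TPM, in which the authors divided by transcript length, the same library was the lowest at 1.58, and the groups did not overlap (2.50, 3.26 and 2.56 TPM in the control, 1.72, 1.74 and 1.58 TPM with miR-322/-503). The implied mean transcript length of Il17rd in that library was 6879 bases, against 3370 to 4605 bases in the other 5. Without that library the log2 fold change of the counts was -0.68.

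Il17rb (ENSMUSG00000015966, chr14:29996135-30008896, minus strand), the chain for IL-25, was counted 21, 8 and 0 times in control libraries and 5, 2 and 8 times with miR-322/-503. In control replicate 1 alone it exceeded 3 read pairs. It shares 141 exonic bases with Actr8 on the opposite strand, which had 2434 to 3187 counts, and the strand setting of the counting is not given in the sources used here, so that its counts are uncertain.

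TPM corrects for length and allows the receptor chains to be ranked against each other, so the ranks rest on the transcript lengths assigned to each gene. In the control, the order was Il17rc (73.3 ± 5.81 TPM, SD, n = 3), Il1r1 (36.0 ± 0.0974), Il17ra (18.8 ± 0.163) and Il1rap (5.10 ± 0.180), with no overlap between neighbours. Il1rl1 (3.05 ± 1.03 TPM), Il17rd (2.77 ± 0.421 TPM) and Il17re (2.36 ± 0.535 TPM) followed, and each overlapped its neighbour in that order. Il17rb was at 0.151 ± 0.206 TPM.

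With miR-322/-503 the first 4 kept their places, at 71.9 ± 1.44, 20.7 ± 1.21, 11.3 ± 1.59 and 4.02 ± 0.0819 TPM. Below them, Il17rd (1.68 ± 0.0905 TPM) and Il1rl1 (0.772 ± 0.546 TPM) no longer overlapped. Il17re, at 0.0834 ± 0.0618 TPM, overlapped Il17rb at 0.0441 ± 0.0254 TPM.

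**Figure D2:**
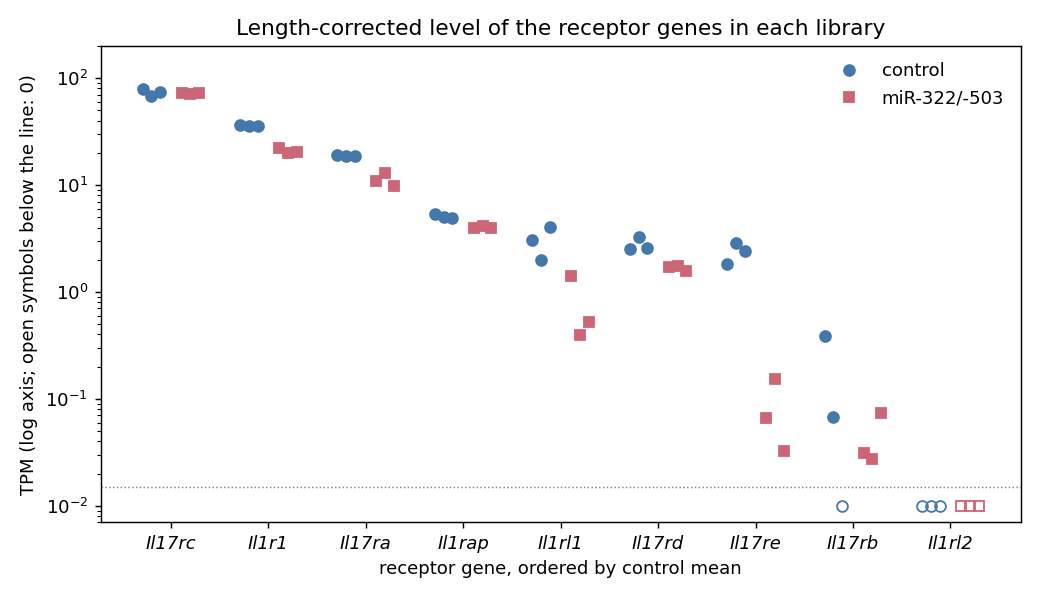
TPM of the 9 receptor genes (log axis) in the control libraries (circles) and the miR-322/-503 libraries (squares), ordered by the control mean, with libraries at 0 drawn as open symbols below the dotted line. Il17rc leads in both groups at about the same level, while Il17re moves from beside Il1rl1 and Il17rd (2.36 TPM) to beside Il17rb (0.0834 TPM).

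The chains of a receptor differed unequally, so their TPM ratios differed between the groups. The ratio of Il17rc to Il17ra was 4.18, 3.62 and 3.91 in the control libraries and 6.68, 5.41 and 7.31 in the miR-322/-503 libraries. By TPM, Il17rc was thus in excess of Il17ra in every library, and more so with miR-322/-503, without overlap. By CPM, which is not divided by length, Il17rc and Il17ra were at 60.3 and 63.1 in the control. With miR-322/-503 they were at 56.6 and 37.7 CPM. The implied mean transcript length of Il17rc was 1345 to 1628 bases, while its 2 longest annotated transcripts hold 2302 and 1759 bases. The size of the excess therefore depends on the lengths assigned. The ratio of Il17re to Il17ra was 0.126 ± 0.0296 in the control and 0.00699 ± 0.00430 with miR-322/-503. In the IL-1 family, the ratio of Il1r1 to its partner Il1rap was 7.06 ± 0.241 in the control and 5.17 ± 0.355 with miR-322/-503, and that of Il1rl1 to Il1rap was 0.599 ± 0.212 and 0.193 ± 0.137, both without overlap. The ratio of Il17ra to Il1r1 overlapped between the groups, at 0.522 ± 0.00336 and 0.546 ± 0.0956. These ratios describe transcripts and not receptor chains at the cell surface.

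The surroundings of the receptor genes were not used to choose them. Il17re ends 668 bases before Il17rc starts, on the same strand. The 10 nearest tested genes, 5 on each side and Il17rc among them, span 0.219 Mb and had log2 fold changes between -0.40 and 0.30 with a median of -0.08, and 0 of them were called. The log2 fold change of -4.56 thus belonged to Il17re alone in this stretch. Around Il17ra, 6980106 bases after Il17rc on the same chromosome, 0 of 10 neighbours were called and their median was 0.02.

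On chromosome 1, Il1r1 and Il1rl1 were both lower, and each was among the 10 nearest tested genes of the other. Around Il1rl1, 3 of the 10 were called higher and 0 lower, with a median of 0.20. Around Il1r1, 2 were called higher and 1 lower, Il1rl1 itself, with a median of -0.03. Il18rap, which encodes a chain of the IL-18 receptor and is the next tested gene after Il1rl1, showed a log2 fold change of 0.54 (edgeR adjusted p = 0.115 over all tested genes). Among the 10 nearest tested genes of Il1rap, which span 4.49 Mb, 3 were called higher and 0 lower, with a median of 0.09. These 3 were at means of 0.0240 to 0.0404 CPM in the control, under the floor of detection. Around Il17rd, over 2.46 Mb, 1 was called higher and 0 lower, with a median of 0.03. No tested receptor gene lay in a stretch in which most neighbours were called in its own direction. Little is read from this, since only 5.29% of all tested genes were called lower.

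**Figure D3:**
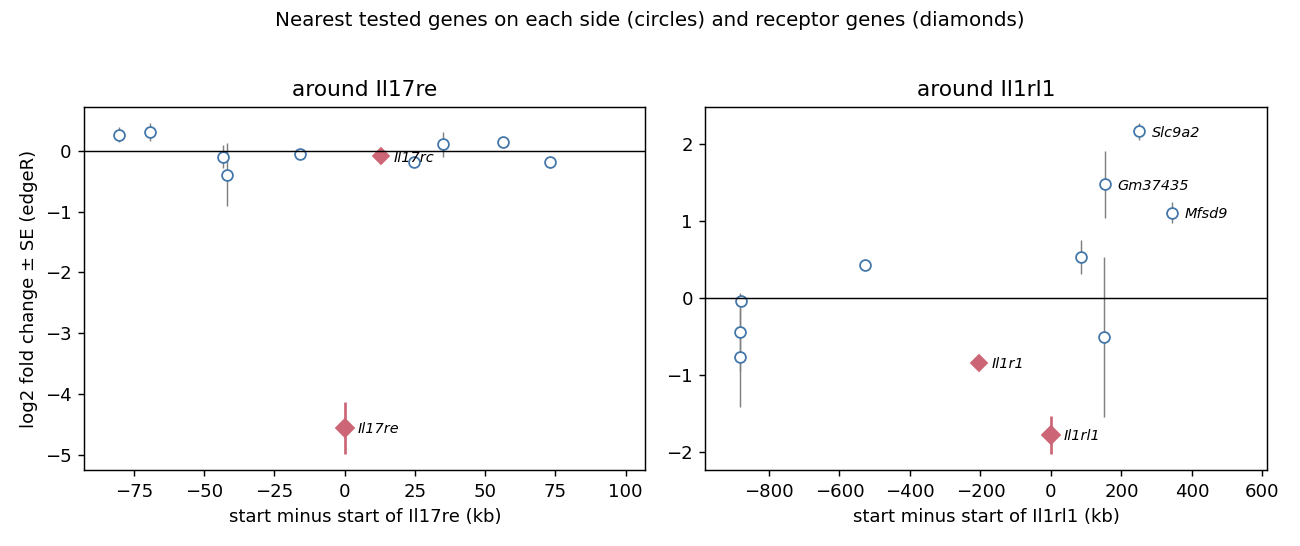
Log2 fold change with its standard error (edgeR) of the 5 nearest tested genes on each side of Il17re (left) and of Il1rl1 (right) against the distance between gene starts in kb. Receptor genes are diamonds and other genes circles, and genes beyond 1 in size are named. The neighbours of Il17re lie between -0.40 and 0.30, and those of Il1rl1 between -0.84 and 2.16.

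The promoters (RefSeq, GRCm38, 250 bases before to 50 after the start) of the 2 genes called lower held few CpG dinucleotides, 3 in Il17re and 1 and 3 at the 2 starts of Il1rl1, where the median of 32851 promoters was 7. Il1rl2 held 3, the 2 starts of Il1r1 held 5 and 14, and Il17rc held 7. Il17rd with 19, Il17rb with 32 and Il1rap with 33 were above the median. Il17rb and Il1rap, at 0.151 and 5.10 TPM in the control, had nearly the same CpG count, so the count did not order the levels. Il17ra had no entry.

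The genes whose log2 CPM profile over the 6 libraries was nearest to that of Il17re, by Euclidean distance after centring and among 13596 genes whose mean reached 1 CPM, were Gm15097, Sp100 and Mfap4. Their distances were 0.491, 0.509 and 0.639, and their log2 fold changes were -4.49, -4.39 and -3.99. Sp100, a component of nuclear bodies, was at 12.7, 14.1 and 16.6 CPM in the control and at 0.703, 0.907 and 0.452 CPM with miR-322/-503, again without overlap. With 3 libraries in each of 2 groups, likeness of this kind mostly reflects the size of the difference between the groups.

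The other genes of the pathways were taken from lists of receptors, ligands, signal transducers, feedback factors and target genes. The lists were also chosen with earlier results of these data known, so the calls and p-values of their genes are a description. The p-values are adjusted over all 18140 tested genes. Of those, 4.59% were called higher and 5.29% lower, and 13.2% and 15.5% passed the adjusted p alone in these directions. Nothing is read from the counts of calls in a list. Of the 6 other genes of the IL-1 receptor family, 2 were tested and 1 was called higher. Sigirr, which encodes a receptor that restrains IL-1 family signalling, rose from 0.762, 0.642 and 0.509 CPM in the control to 2.13, 1.64 and 1.21 CPM with miR-322/-503 (log2 fold change 1.38 with an SE of 0.30, edgeR adjusted p = 0.0115). The groups did not overlap, but Sigirr missed the adjusted p when log2 TPM was tested with limma in place of counts with edgeR. The decoy receptor Il1r2 had at most 4 counts in a library, and Il18r1, Il1rapl1 and Il1rapl2 were also near or at 0.

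Of the 10 ligands of the IL-1 family, 6 were tested, 3 were called higher and 0 lower. Il33, the ligand of the receptor encoded by Il1rl1, rose from 26.5, 29.5 and 29.3 CPM to 271, 298 and 316 CPM (log2 fold change 3.37 with an SE of 0.08, edgeR adjusted p = 8.03e-07). The ratio of Il33 to Il1rl1 in TPM was 6.52, 10.9 and 5.36 in the control libraries and 148, 570 and 427 in the miR-322/-503 libraries. Between the groups, the ligand was thus higher and its receptor lower with miR-322/-503, each without overlap. The TPM of Il1rl1 in this ratio depends on its implied transcript length, which differed among replicates. Il1rn, which encodes the antagonist that occupies the receptor encoded by Il1r1, rose from 0.284 ± 0.0780 to 1.39 ± 0.0546 CPM (log2 fold change 2.29 with an SE of 0.29, edgeR adjusted p = 0.00107).

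Il1f9, which encodes IL-36 gamma, had 0 counts in every control library and 42, 44 and 45 counts with miR-322/-503, a difference of at least 3.67-fold, higher, with each control library set to 3 read pairs (edgeR adjusted p = 0.00136). Its receptor chain Il1rl2 was at 0 in the same libraries. The agonists of the receptor encoded by Il1r1 were low and not called, with Il1b at 1.26 ± 0.0816 CPM in the control and 1.49 ± 0.256 CPM with miR-322/-503. Il18 passed the adjusted p in the higher direction with a log2 fold change of 0.81, short of a call.

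Of the 6 ligands of the IL-17 family, only Il17d was tested. It was at 0.207, 0.521 and 0.486 CPM in the control and at 0.168, 0.120 and 0.0665 CPM with miR-322/-503, a log2 fold change of -1.75 (standard error 0.57) that missed the threshold (edgeR adjusted p = 0.0551). Il17c, the ligand of the receptor with the IL-17RE chain, had at most 8 counts in any library, Il25, Il17b and Il17f at most 5, and Il17a none. Il17re was thus lower in libraries in which its ligand was not measured above 3 read pairs in either group.

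Of the 18 genes of IL-1 receptor signal transduction, all were tested, 0 were called, 5 were higher and 2 lower by the adjusted p alone, and their median log2 fold change was 0.16 with a range of -0.49 to 0.75. The 2 lower genes, named after their values were seen, were Myd88, the adaptor of the family (log2 fold change -0.49, edgeR adjusted p = 0.00447), and Irak1, its kinase (-0.24, adjusted p = 0.0327). The 5 higher genes, also named after their values were seen, were Ikbkg (log2 fold change 0.56, edgeR adjusted p = 0.00497), Tab3 (0.53, adjusted p = 0.0151), Chuk (0.33, adjusted p = 0.0154), Ube2n (0.31, adjusted p = 0.00396) and Ube2v1 (0.23, adjusted p = 0.0206), which encode parts of the kinase complexes and of the ubiquitin-conjugating enzyme that act with or after TRAF6. Of the 10 genes of IL-17 receptor signal transduction, again 0 were called, and 2 were higher by the adjusted p alone with a median of 0.08 and a range of -0.17 to 0.64. Traf3ip2, which encodes the adaptor Act1, was not among them.

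Of the 9 feedback and transcription factors, 1 was called. Cebpd, which encodes a C/EBP transcription factor induced by both receptor families, fell from 15.5 ± 1.84 to 6.72 ± 0.448 CPM (log2 fold change -1.21 with an SE of 0.12, edgeR adjusted p = 0.000279). The list had a median of -0.28, with 2 genes higher and 2 lower by the adjusted p alone.

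Of the 22 inflammatory target genes, 12 were tested, 4 were called lower and 1 higher, and their median log2 fold change was -0.47. Cxcl1, a neutrophil-attracting chemokine, fell from 17.5, 16.0 and 16.7 CPM to 2.12, 2.93 and 3.05 CPM (log2 fold change -2.64 with an SE of 0.15, edgeR adjusted p = 2.43e-05). Steap4, a metalloreductase, had 20, 22 and 70 counts in the control and 0 in every miR-322/-503 library, at least 3.04-fold lower at the floor of 3 read pairs per library (edgeR adjusted p = 0.00713). Control replicate 3 held most of its counts, and without that library the bound was 1.77-fold. Ptgs2, which encodes cyclooxygenase-2, and Cxcl5 were the others called lower.

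Nos2, which encodes the inducible nitric oxide synthase, moved the other way, from 1.52 ± 0.292 to 8.33 ± 1.14 CPM (log2 fold change 2.45 with an SE of 0.19, edgeR adjusted p = 9.27e-05). The target genes therefore did not move as 1 group. Their list holds genes that other stimuli also induce, and no comparison with a ligand of either family was made in these libraries.

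**Figure D4:**
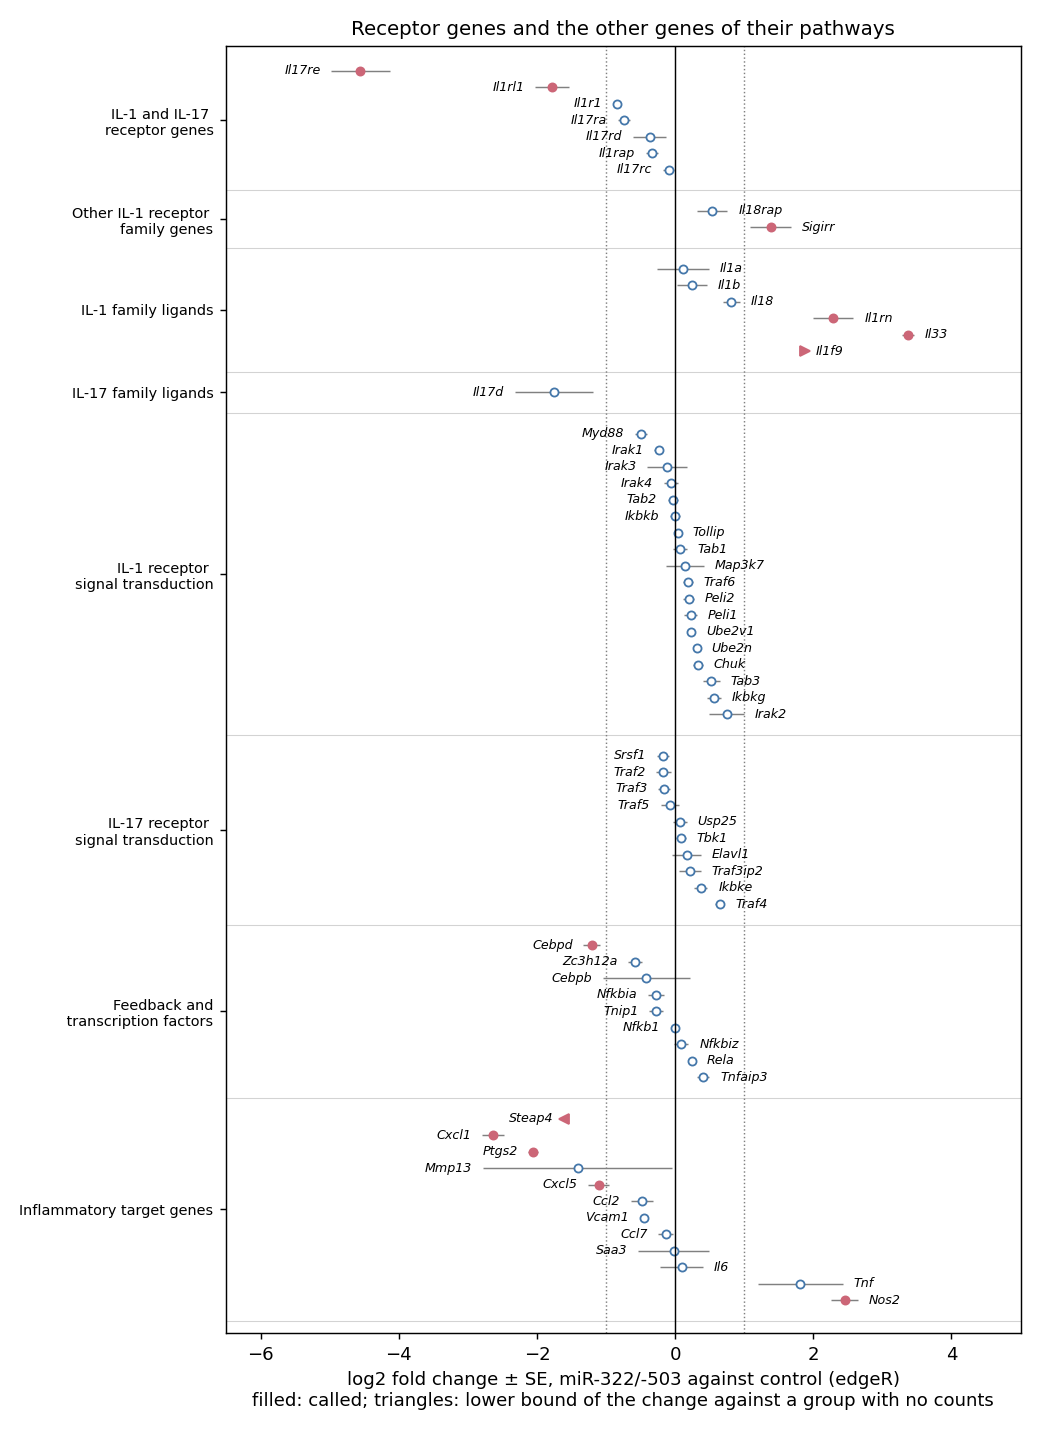
Log2 fold change (miR-322/-503 against control) with its standard error from edgeR for every tested receptor gene and every tested gene of the other lists, with called genes filled and dotted lines at -1 and 1. Triangles mark Il1f9 and Steap4 at the lower bound of their change, since 1 of their groups had no counts. All 7 receptor genes, which were chosen on this comparison, lie below 0. The 6 tested IL-1 family ligands lie above 0, though Il1a and Il1b did not pass the adjusted p. The 1 tested IL-17 family ligand, Il17d, lies below 0 and did not pass it either.

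Markers of other cell types that could carry these receptors moved in both directions. Of the 8 macrophage and leukocyte markers, 4 exceeded 3 read pairs in a library, with a summed level of 17.9 to 21.8 CPM in the control and 16.2 to 17.3 CPM with miR-322/-503, and the defining markers Adgre1 and Tyrobp were at 0 in all libraries. Most of this sum was Cd14, which was lower by the adjusted p alone, at 15.8 ± 1.35 CPM in the control and 12.5 ± 0.568 CPM with miR-322/-503. Lyz2 was called lower, from 1.27 ± 0.481 to 0.0222 ± 0.0384 CPM, in the direction of Il17re and Il1rl1. Cd68 was at 2.47 ± 0.459 CPM in the control and 3.44 ± 0.368 CPM with miR-322/-503, and did not pass the adjusted p. Of the 8 lymphocyte markers, 7 were at 0 in all libraries, Cd3e and Cd4 among them.

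Of the 8 markers of mast cells, which carry ST2, 2 exceeded 3 read pairs, at a summed level of 0.391 to 0.484 CPM in the control and 48.3 to 56.3 CPM with miR-322/-503. Most of this was Hdc, with 24, 31 and 33 counts in the control and 5355, 3756 and 3633 with miR-322/-503, against the direction of Il1rl1, while the defining markers Cpa3, Mcpt4 and Fcer1a were at 0. The summed epithelial markers, mostly Krt14, were at 34.2 to 39.3 CPM in the control and 11.7 to 14.4 CPM with miR-322/-503, lower like Il17re, with Krt5, Cldn4 and Esrp1 at 0 and 2 of 6 markers over 3 read pairs. The summed fibroblast markers were at 10170 to 10722 CPM and 6270 to 6416 CPM, with 5 of 6 over 3 read pairs, and were lower with miR-322/-503, like Il1r1 and Il17ra. Nearly all of this was Col3a1, at 10027 ± 290.2 and 5990 ± 73.7 CPM. Lum was called lower, and Pdgfra, Dcn and Col3a1 were lower by the adjusted p alone, while Dpt was higher by it, at 9.92 ± 0.675 CPM in the control and 19.0 ± 3.56 CPM with miR-322/-503. Of the 6 endothelial markers, 2 exceeded 3 read pairs, at a summed level of 1.59 to 1.98 CPM and 3.89 to 5.57 CPM. The part of any of these cell types in the levels of the receptor genes was not tested.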

How the data were processed

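RNA-seq was performed on 3 control and 3 miR-322/-503 libraries. The authors used Trim Galore to filter reads, HISAT2 to align to GRCm38, and StringTie to quantify (versions and annotation not given in the sources used here). They deposited unnormalized estimated counts as whole numbers for each gene. The deposited tables of single libraries give TPM, normalized by the authors for length and depth, and coverage, a signal per base. TPM of genes on repeated rows (7 to 13 per library) was summed. Coverage showed that 75 bases stood for 1 count and that a read pair entered as about 4 counts.

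The receptor genes and gene lists were chosen with earlier results of these data known. The fixed design spoke of counts, and the estimated counts were tested as deposited with edgeR 4.0.16 (R 4.3.3, filterByExpr, TMM, glmQLFit, glmQLFTest, Benjamini-Hochberg adjustment over 18140 genes). Standard errors were derived from the quasi-likelihood F. Named genes are all receptor genes, the 3 called genes of each list with the largest absolute log2 fold change, the most abundant ligand of each ligand list, and the 3 genes most like Il17re, since no receptor gene rose. Others are named where said. Replicates differed beyond sampling noise (chi-square per degree of freedom 13.6 to 19.6). On simulated counts, edgeR recovered 200 of 200 changed genes with 3 false calls among 18174. The simulation used negative binomial counts with 1 fixed dispersion, and 1 size of change in genes above a minimum mean count. It says nothing of genes under that mean, such as Il1f9 and Steap4. GENCODE M21 held 55154 of the gene identifiers and gave every receptor gene the deposited position. The alternatives were DESeq2 1.42.0, RLE size factors, other filters, limma 3.58.1 on log2 TPM, counts per read pair, a replicate block and leaving out each library. The values of 1 lymphocyte marker are not reported here.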

Additional observations from a re-analysis of the deposited data

How the results depend on the processing

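The 2 receptor genes called lower and the 0 called higher were found under every alternative except a filter of at least 10 counts in every library, which removed Il17re from the table and left 1 called lower. With limma on log2(TPM + 1), which understates changes of low genes, 391 genes were called higher and 564 lower over all genes in place of 832 and 959, and 2 pathway genes were called higher and 3 lower in place of 5 and 5. The filter of at least 10 counts in every library and the counts per read pair each gave 4 pathway genes called in either direction, and neither setting gave a value for Il1f9 or Steap4, so these calls ended there. Leaving out 1 library at a time gave 715 to 806 genes higher and 886 to 965 lower, and 5 to 6 pathway genes in each direction. With the replicate block, 2 receptor genes were called lower and 5 pathway genes in each direction, as without it. The deviations of same-numbered libraries correlated at 0.131, 0.0687 and 0.0451, so the numbers were not taken to pair the libraries. Over 217 fits of single named genes none changed sign. Il1rap passed the adjusted p in the fit of all libraries and without control replicate 3, and did not pass it without any other single library or with limma. Il17rd and Il17d passed it with limma, Il17rd also without miR-322/-503 replicate 3 and Il17d without control replicate 1. Sigirr missed it with limma at either pseudocount and Steap4 at a pseudocount of 1. The log2 fold change ranged from -5.15 to -1.62 for Il17re, from -1.99 to -1.20 for Il1rl1, from -0.86 to -0.77 for Il1r1 and from -0.82 to -0.67 for Il17ra. Il17rb had a log2 fold change of -0.98 (standard error 1.49) with DESeq2, so its difference was not resolved at this depth. The cause of these shifts was not tested.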
